A study of Mus musculus with 4 samples.

Results

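Small Cajal body RNAs (scaRNAs) were followed in RNA immunoprecipitation sequencing (RIP-seq) of mouse retina with an antibody against YTHDF2. The members were all genes of the count table whose symbol begins with Scarna and a number, which gave 9 of 52550 genes. They are Scarna2, Scarna3a, Scarna3b, Scarna6, Scarna8, Scarna9, Scarna10, Scarna13 and Scarna17. The class was chosen because of the rise of Scarna2 in these same libraries, so fold changes of the members are given as a description and without a test. Retinas came from wild type C57BL/6 mice at P0 and were dissociated with papain. Each of 2 biological replicates was sequenced as RNA set aside before the pulldown (input) and as RNA recovered with the anti-YTHDF2 antibody (RIP). Input and RIP libraries share strain, genotype and age. The tissue was whole retina, so that no value belongs to one cell type, and the pulldown with control IgG named in the methods was not analysed here. RNA held by YTHDF2 and RNA held by the antibody or beads therefore cannot be told apart.

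scaRNAs are guide RNAs of the Cajal body, a nuclear body in which spliceosomal small nuclear RNAs (snRNAs) are modified. Box C/D guides pair with the target and direct ribose methylation by fibrillarin, box H/ACA guides direct pseudouridylation by dyskerin, and some scaRNAs carry both kinds of domain. Most are cut out of introns of host genes, and WRAP53 takes many of them to the Cajal body. YTHDF2 is known as a reader of N6-methyladenosine (m6A) in mRNA that recruits the deadenylation machinery, and it is found mainly in the cytoplasm.

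In all, 39499994 and 36236531 reads were counted on genes in input replicates 1 and 2, and 19530226 and 24903212 after RIP. The 2 genes of the ribosomal RNA locus took 55.0 to 55.5% of input counts and 85.3 to 87.8% of RIP counts, and their part in the results was not tested. Of the retina markers, 12 of 12 were measured, with summed levels of 326 to 399 CPM (counts brought to a common library size by TMM) in the inputs and 253 to 259 CPM in the RIP libraries. Lens crystallins were at or near 0, with Cryaa, Crybb1 and Crygs at 0 in all 4 libraries, as were 5 of 6 markers of the pigment epithelium, among them Rpe65 and Tyr. The remaining one, Dct, had 15 and 0 input counts and 12 and 7 RIP counts. Blood markers summed to 0.758 to 0.990 CPM in the inputs and 0.119 to 0.416 CPM in the RIP libraries. Markers of vessels and microglia summed to 31.6 to 32.3 CPM in the inputs and 64.2 to 66.7 CPM in the RIP libraries. Nearly all of this came from Kdr, an endothelial receptor, at 29.9 and 30.2 CPM in input and 63.3 and 65.0 CPM in RIP. Pecam1 and Cdh5, the other endothelial markers listed, had too few counts to be tested. These sums are therefore not read as vessel content.

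The sequences that carry the result are those of the 2 members with the largest rise. They are printed 5′ to 3′ from the GENCODE M21 transcripts (GRCm38), with the letters of a box C (TGATGA) and the last box D (CTGA) in capitals. Scarna2 lies on the minus strand at chr3:108554338-108554751, outside any annotated host, 1674 bases from Tmem167b. Only its last 100 bases (chr3:108554338-108554437), which hold both boxes, are printed. Scarna9 lies on the minus strand at chr9:15326264-15326333 in an intron of Cep295. Gm24339, a gene annotated as a small nucleolar RNA (snoRNA), lies on the same strand and in the same gene at chr9:15326464-15326539, 130 bases from Scarna9. It is shown because its pattern over the libraries was the one most like that of Scarna2.
Scarna2 3′ end: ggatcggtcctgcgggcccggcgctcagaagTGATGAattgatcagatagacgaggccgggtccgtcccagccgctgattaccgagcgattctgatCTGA
Scarna9: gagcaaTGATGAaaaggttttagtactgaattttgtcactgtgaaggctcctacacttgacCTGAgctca
Gm24339: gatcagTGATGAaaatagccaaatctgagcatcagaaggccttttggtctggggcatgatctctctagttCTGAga

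Scarna2 was counted 2681 and 2354 times in the inputs (replicates 1 and 2, the order kept throughout) and 17804 and 26106 times after RIP. Both RIP libraries stood far above both inputs. The input level is one of bulk tissue, in which fewer cells with an RNA and less of it per cell cannot be told apart, and the RIP level is one of the recovered fraction. This was 74.5 ± 8.35 CPM (SD, n = 2) in input and 896 ± 268 CPM in RIP. The fitted log2 fold change was 3.59 with a standard error (SE) of 0.421, and the log2 ratios within replicates 1 and 2 were 3.13 and 3.98. By log2 fold change it ranked 17 of 13632 tested genes, which restates the choice of this gene for its rise. Scarna9 ranked 14, at a mean of 4.69 CPM. Among genes with a mean of at least 5 CPM, a limit used only here, 0 stood above Scarna2. Leaving out any 1 library gave 3.34 to 3.97 for Scarna2.

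Scarna9 had 17 and 28 input counts and 178 and 250 RIP counts. These counts were far lower than those of Scarna2, and the groups of Scarna9 did not overlap either. Levels were 0.663 ± 0.216 CPM in input and 8.72 ± 2.36 CPM in RIP. The log2 fold change was 3.71 (SE 0.470), with 3.79 and 3.67 within the replicates and 3.41 to 4.08 with any 1 library left out. The human counterparts of Scarna2 and Scarna9 are known as long box C/D scaRNAs from which shorter guide fragments are cut. Whether the same holds for other members was not examined here. In mouse the annotation gives Scarna9 only 70 nt, against 414 nt for Scarna2. Gm24339, beside Scarna9, had 1187 and 1066 input counts and 5507 and 9182 RIP counts. Its log2 fold change was 3.17 (SE 0.420). Because this snoRNA gene was picked for a pattern like that of Scarna2, the rise is given without a test. Scarna9 and Gm24339 span 276 nt together, and whether reads of the table come from one longer RNA was not tested. Gm24339 was counted 69.8 and 38.1 times as often as Scarna9 in the inputs and 30.9 and 36.7 times as often in the RIP libraries.

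Scarna10 was the most abundant member in the inputs, with 6966 and 7395 counts there and 5533 and 8489 under RIP. Its RIP levels of 219 and 353 CPM were above the input levels of 209 and 216 CPM, replicate 1 by little. The log2 fold change was 0.43 (SE 0.375), between 0.13 and 0.83 when any 1 library was left out. Scarna6 had 42 and 39 input counts and 27 and 17 RIP counts, all of them low. Its log2 fold change was -0.43 (SE 0.558), at -0.07 without RIP replicate 2 and at 1.60 when the libraries were scaled on small noncoding genes alone. In FPKM, the authors' value per length, the Scarna6 groups overlapped, with 3.79 and 3.89 in input and 4.66 and 2.27 in RIP. Scarna17 had 53 and 37 input counts and 32 and 51 RIP counts, so that the groups overlapped. Its log2 fold change was 0.34 (SE 0.518). For Scarna6, Scarna10 and Scarna17 the change was of about the size of its SE or smaller.

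Low counts left 4 members without a fold change. Scarna13 had 9 and 0 input counts and 0 and 27 RIP counts, so that each group held a library at 0. The table describes this gene as small Cajal body-specific RNA 1, although its symbol is Scarna13. Scarna8 had 14 and 3 input counts and 4 and 0 RIP counts. Scarna3b had 4 and 1 input counts and 1 and 1 RIP counts, at or next to the floor of 3 counts per library. Scarna3a had 5 and 11 counts in the inputs and 0 in both RIP libraries. Set against a floor of 3 counts in each RIP library, the mean of its inputs was 1.93-fold higher on the TMM scale. This ratio leaves out the counting error of the inputs. Input replicate 1 (0.150 CPM) was close to the mean RIP floor of 0.122 CPM. At this depth no direction was readable for Scarna3b, Scarna8 or Scarna13.

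**Figure D1:**
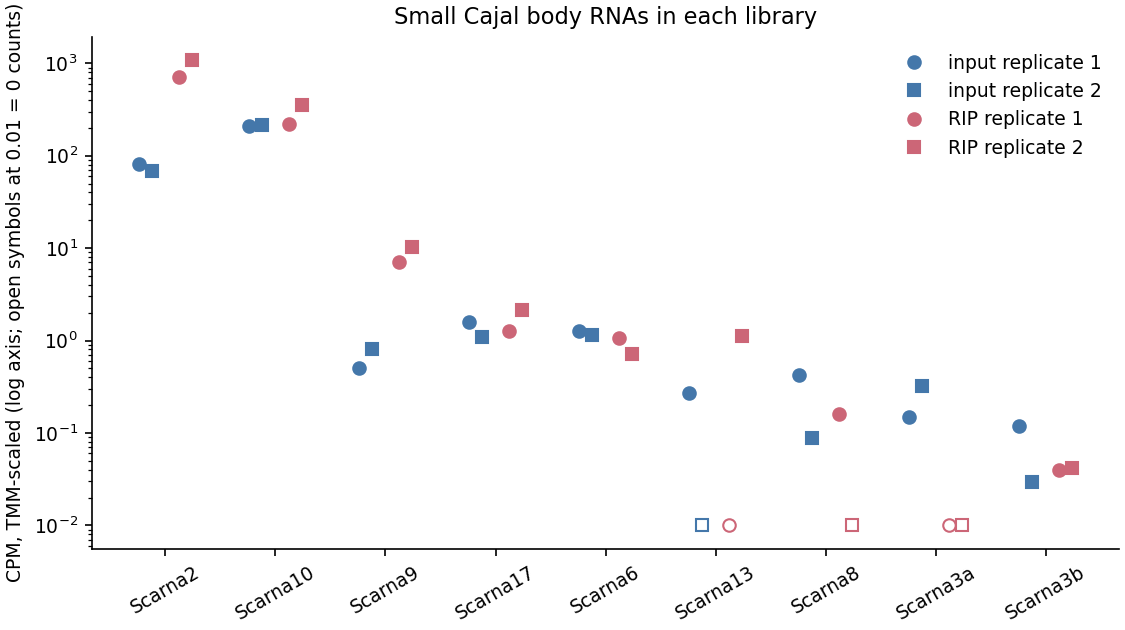
CPM of the 9 named scaRNAs (log axis, TMM-scaled) in input (blue) and RIP (red) libraries, circles for replicate 1 and squares for replicate 2, with open symbols at 0.01 for libraries with 0 counts. Scarna2 and Scarna9 are the members whose RIP points stand well above the inputs, at 706 and 1085 CPM against 80.4 and 68.6 CPM for Scarna2.

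Of the 9 members, 5 passed the filter on low counts and 2 of these (Scarna2 and Scarna9) were past the limits for an enriched transcript, an unadjusted p below 0.05 with a log2 fold change no lower than 1. Over all genes 9.43% were called enriched by this rule and 17.2% depleted. No member was called depleted. Because the members were chosen on this contrast, these limits only sort their values, and nothing is read from the shares here or in the groups by letters and length that hold them. In 3 of the 5 both RIP libraries stood above both inputs, against 29.6% of all tested genes. The median log2 fold change was 0.43 over the 5 members and -0.05 over all tested genes. Scarna2 stood 3.20 log2 units above the median of the other tested members (3.22 and 3.14 within the replicates). That distance is nearly free of the scaling between libraries, and it ranged from 3.16 to 3.26 with any 1 library left out.

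Levels are compared between members per length, in FPKM. In the inputs Scarna10 led with 560 ± 61.2 FPKM (SD, n = 2), followed by Scarna2 with 153 ± 3.82, Scarna17 with 14.3 ± 2.85, Scarna9 with 8.08 ± 3.23 and Scarna6 with 3.84 ± 0.0686. No neighbours in this order overlapped in their values, nor did they in the RIP libraries. In the RIP libraries Scarna2 led with 2180 ± 214 FPKM, ahead of Scarna10 with 885 ± 115, Scarna9 with 127 ± 8.53, Scarna17 with 21.5 ± 3.15 and Scarna6 with 3.47 ± 1.69. Scarna2 and Scarna10 thus changed places, as did Scarna9 and Scarna17. Within a library the ratio of Scarna2 to Scarna10 counts was 0.385 and 0.318 before the pulldown and 3.22 and 3.08 after it. The 9 members took 0.0248 to 0.0272% of all counts in the inputs and 0.121 to 0.140% in the RIP libraries.

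**Figure D2:**
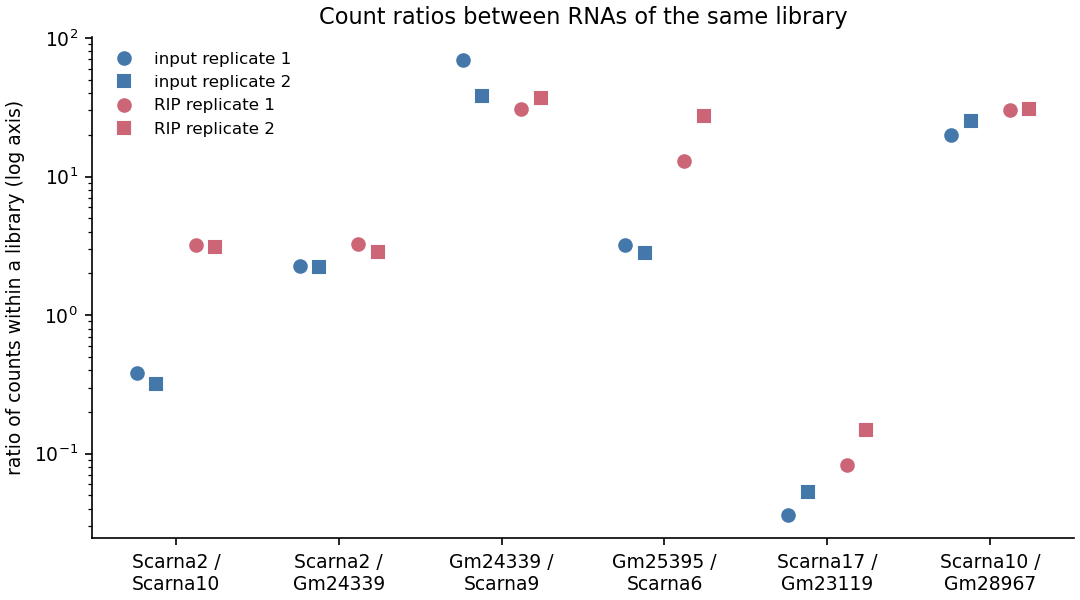
Ratio of counts between pairs of RNAs within each library (log axis), input in blue and RIP in red, circles for replicate 1 and squares for replicate 2. The ratio of Scarna2 to Scarna10 rises from 0.385 and 0.318 to 3.22 and 3.08. That of Scarna2 to Gm24339 rises less, from 2.26 and 2.21 to 3.23 and 2.84.

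Scarna10 and Scarna6 are longer than 200 nt as well, and their letters show the same boxes. They are printed, Scarna10 by its first and last 50 bases (chr6:125186634-125186683 and chr6:125186359-125186408), because they hold the same boxes as Scarna2 and Scarna9 and did not pass the limits. The first TGATGA begins at base 7 in Scarna6, Scarna9 and Scarna10, but at base 346 of 414 in Scarna2. Scarna10 lies at chr6:125186359-125186683 on the minus strand, overlaps an exon of Ncapd2 and is annotated as a snoRNA, as is Scarna9. The other 7 members are annotated as scaRNAs. Scarna6 lies at chr1:87784556-87784820 on the plus strand in an intron of Atg16l1. Gm25395, an scaRNA gene without a Scarna symbol, lies 7346 bases away in the same host at chr1:87776938-87777209.
Scarna10 5′ end: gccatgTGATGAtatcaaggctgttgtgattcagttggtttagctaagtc
Scarna10 3′ end: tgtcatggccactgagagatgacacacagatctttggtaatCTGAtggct
Scarna6: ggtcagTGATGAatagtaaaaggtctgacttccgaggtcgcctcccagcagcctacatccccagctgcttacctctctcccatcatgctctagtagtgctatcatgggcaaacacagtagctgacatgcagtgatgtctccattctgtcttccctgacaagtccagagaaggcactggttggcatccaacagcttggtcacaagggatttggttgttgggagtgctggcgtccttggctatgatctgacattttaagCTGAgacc
Gm25395: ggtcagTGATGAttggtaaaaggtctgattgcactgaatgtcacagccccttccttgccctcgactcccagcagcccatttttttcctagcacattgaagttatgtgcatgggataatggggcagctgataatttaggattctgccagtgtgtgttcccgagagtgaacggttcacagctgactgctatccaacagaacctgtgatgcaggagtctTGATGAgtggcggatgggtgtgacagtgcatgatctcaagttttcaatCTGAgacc
In capitals are TGATGA and the last CTGA. Gm25395 holds TGATGA at 2 places. Of these RNAs from 1 host, Gm25395 was enriched while Scarna6 was not past the limits. Gm25395 had 134 and 110 input counts and 348 and 461 RIP counts, a log2 fold change of 2.19 (SE 0.373, adjusted p = 0.00773). Within a library it was counted 3.19 and 2.82 times as often as Scarna6 in the inputs and 12.9 and 27.1 times as often in the RIP libraries.

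All 5 tested members held a TGATGA followed by a CTGA with at most 15 bases after it. All 4 members without a fold change held an ACA with 2 or 3 bases after it, which is the mark of the box H/ACA class. Scarna8, a member of this second form, lies at chr4:86586453-86586583 on the minus strand in an intron of Haus6 and is shown for comparison, with its ACA in capitals.
Scarna8: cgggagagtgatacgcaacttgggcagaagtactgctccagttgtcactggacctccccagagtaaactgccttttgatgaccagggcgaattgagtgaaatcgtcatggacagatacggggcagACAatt
The searches used only the strand of the transcript, and no match overlapped another. In windows of the same length from the middle of protein-coding transcripts, 0.219 to 1.68% held the C/D pair and 3.69 to 4.35% the ACA, depending on the member's length. Of 1558 snoRNA and scaRNA genes, 22.8% held the C/D pair and 44.1% the ACA tail. Letters of this kind describe the sequence and do not show which proteins an RNA carries. The ACA was searched for at the 3′ end only, so an RNA with the C/D pair may hold an H/ACA domain as well. Which RNAs carry both kinds of domain was not examined.

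A further 44 genes of the table are annotated as scaRNAs under other symbols, of which 20 had a count and 10 were tested. Of these 10, 2 were enriched and 7 depleted, against 9.43% and 17.2% of all tested genes. The median log2 fold change of the 10 was -1.37. The 7 depleted fell to 3 without RIP replicate 2, to 4 without RIP replicate 1 or input replicate 1, and to 1 when scaled on small noncoding genes alone, where the median was 0.65. With library size alone 4 of the 10 were depleted, and by DESeq2 6 were. By limma 5 were depleted on log2(FPKM + 0.1) and on log2(FPKM + 1), and 4 with no filter on low values. The 2 enriched genes were Gm25395 and Gm22009. Gm22009, a 343 nt RNA from an intron of Kpna4, was the most abundant scaRNA gene, with 60119 and 34689 input counts and 102584 and 143929 RIP counts. Per length this was 3456 ± 1093 FPKM in input and 14817 ± 993 FPKM in RIP, above every named member. Its log2 fold change was 1.84 (SE 0.464, adjusted p = 0.0352). Gm26083 fell the most, from 238 and 278 counts to 21 and 9 (log2 fold change -3.64, adjusted p = 0.00302). Gm22767 fell from 316 and 322 counts to 28 and 31 (log2 fold change -2.97, adjusted p = 0.00271). Gm22442 had 328 and 312 input counts and 61 and 88 RIP counts (log2 fold change -1.64, adjusted p = 0.0282), a direction that turned to 0.34 when libraries were scaled on small noncoding genes alone and missed the limits without RIP replicate 1 (-1.27, adjusted p = 0.405). Gm25820, Gm23751, Gm24289 and Gm23119 were past the limits for depletion (log2 fold change -2.36 to -1.12) with adjusted p-values of 0.0845 to 0.163. Each of these 4 missed the limits without RIP replicate 2, and Gm24289 also by DESeq2 and limma. Gm23119 also missed the limits by every form of limma and with library size alone. Gm25492 stood at 0.60 (adjusted p = 0.697).

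Scarna17 and Gm23119 lie 91 bases apart on the same strand. They span 310 nt together, and whether reads of the table come from a longer RNA that holds both was not tested. Gm23119 had 1477 and 705 input counts and 389 and 345 RIP counts, a log2 fold change of -1.12 (adjusted p = 0.117), which turned to 0.91 under the scaling on small noncoding genes. It was -0.47 and short of the limits without input replicate 1, and it also missed them without either RIP library. Limma and scaling by library size alone likewise left Gm23119 short of the limits. Scarna17 was counted 0.0359 and 0.0525 times as often as Gm23119 in the inputs and 0.0823 and 0.148 times as often in the RIP libraries. At Scarna9 and Gm24339 both neighbours were past the limits for enrichment. Scarna17 and Scarna6 were not past the limits in either direction. Gm25395, the neighbour of Scarna6, was called enriched, whereas Gm23119, the neighbour of Scarna17, was called depleted. The call of Gm23119 was lost when any of 3 libraries was left out, by limma and with library size alone. The differences within these pairs were not tested, and Gm24339 was picked for its likeness to Scarna2.

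Grouped by these letters, the 15 tested scaRNA genes (5 members and 10 others) fell into 7 with the C/D pair, 7 with the ACA tail and 1 (Gm23119) with neither. Of the 7 with the C/D pair, 4 were enriched and 0 depleted, with log2 fold changes of -0.43 to 3.71 and a median of 1.84. Of the 7 with the ACA tail, 0 were enriched and 6 depleted, with log2 fold changes of -3.64 to 0.60 and a median of -1.64. With library size alone 4 of these 7 were depleted, by DESeq2 5 and by limma 4 or 5. Without RIP replicate 2 the 6 depleted fell to 3, without RIP replicate 1 and without input replicate 1 to 4 each, and scaled on small noncoding genes alone 1 was depleted and 1 enriched. The 4 enriched with the C/D pair were 4 with any 1 library left out, but 2 of them are the members Scarna2 and Scarna9, and the other 2 are the only C/D genes outside the members. The grouping was made with the values known, so no test is given. The same letters did not part the remaining snoRNA genes in this way. Of 33 with the C/D pair, 1 was enriched and 24 depleted with a median of -2.75, and of 42 with the ACA tail, 1 was enriched and 18 depleted with a median of -1.43. The single enriched gene with the C/D pair was Gm24339.

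**Figure D3:**
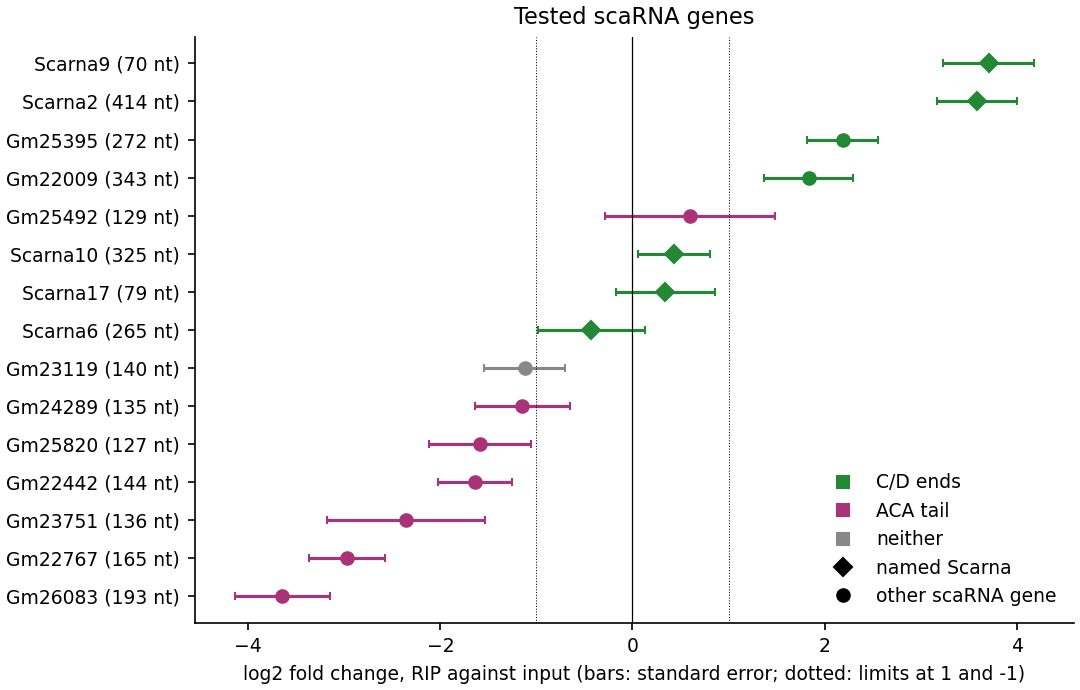
Log2 fold change (RIP against input, bars: SE) of the 15 tested scaRNA genes, with annotated length in brackets, diamonds for named Scarna genes, circles for other scaRNA genes and colours for the letters at the ends. The 4 genes past the limit of 1 carry the C/D pair, and the ACA tail genes run from -3.64 to 0.60.

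Length ran along with these groups. Of the 5 tested scaRNA genes of at least 200 nt, from 265 to 414 nt, 3 (Scarna2 among them) were enriched and 0 depleted, with a median log2 fold change of 1.84. Of the 10 shorter ones, 1 (Scarna9) was enriched and 7 depleted, with a median of -1.37. Members were chosen in part by the value of Scarna2, which is also the longest, so the relation is described with and without it, a choice made after seeing the data. Over the 15 genes the correlation of length with log2 fold change was r = 0.39 (rho = 0.15). It was r = 0.17 (rho = 0.01) without Scarna2, r = 0.66 (rho = 0.41) without Scarna9, r = 0.50 (rho = 0.26) over 13 genes without both, and r = 0.62 (rho = 0.12) over the 10 other scaRNA genes alone. All of these rest on the same 4 libraries. GC content had r = -0.06 (rho = -0.11) over the 15 genes. Over all 172 tested snoRNA, scaRNA and snRNA genes the values were r = -0.12 (rho = -0.29). Of the 153 genes under 200 nt, 88 were depleted and 4 enriched, with a median of -1.89. Of the 19 of at least 200 nt, 12 were depleted and 3 enriched, but 9 of the 12 are copies of U3, a box C/D snoRNA (Rnu3a and Rnu3b genes). Without these, likewise left out after seeing the data, the 10 remaining long genes held 3 depleted and 3 enriched, with a median of -0.39, and r over 163 genes was 0.07 (rho = -0.20). The 3 enriched long genes were scaRNA genes (Scarna2, Gm25395 and Gm22009). Which lengths the library preparation and the fragment selection kept is not given in the sources used here, and its part in these values was not tested.

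**Figure D4:**
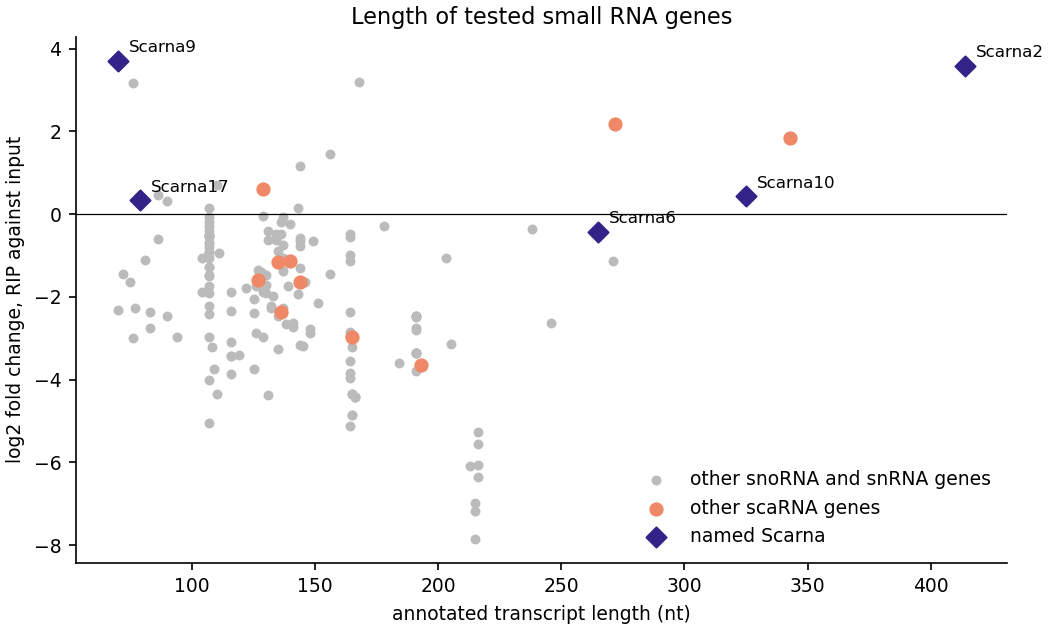
Annotated transcript length (nt) against log2 fold change (RIP against input) for 170 of 172 tested small RNA genes, with named Scarna genes as diamonds, other scaRNA genes as orange circles and other snoRNA and snRNA genes in grey. The 2 genes with 0 counts in both RIP libraries are not drawn, and among genes of at least 200 nt the points above 1 are Scarna2, Gm25395 and Gm22009.

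The classes of small RNA most like the members were mostly lower in RIP. Over all tested genes 9.43% were enriched and 17.2% depleted. Of 19 tested Snord genes (box C/D snoRNAs), 0 were enriched and 13 depleted, with a median log2 fold change of -2.31. Of 17 Snora genes (box H/ACA snoRNAs), 0 were enriched and 7 depleted, with a median of -1.41. Of 70 snRNA genes, the class that scaRNAs modify, 0 were enriched and 46 depleted, with a median of -2.48. The snRNA genes took 0.251 and 0.291% of input counts and 0.0351 and 0.0345% of RIP counts. Scaled on small noncoding genes alone, which sets the middle of these classes near 0, 13 genes of these classes were enriched and 23 depleted. By DESeq2 0 genes of these classes were enriched, and by limma on log2(FPKM + 0.1) 10 were. Many snRNA genes have near-identical copies, and how reads that match several copies were counted is not given in the sources used here.

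Reads that could belong to another gene limit some members. Scarna2, Scarna6 and Scarna9 had no other transcript that matched at least 20% of their length. Scarna10 matched Gm28967, an overlapping gene, at 100% over 281 nt. Gm28967 had 350 and 294 input counts and 184 and 278 RIP counts (log2 fold change -0.02), and Scarna10 was counted 19.9 to 30.5 times as often. Scarna17 matched Gm25443 at 100% over 70 nt. Scarna3a and Scarna3b were 86.2% identical over 138 nt, and each overlaps an annotated microRNA gene (Mir1843b and Mir1843a). Scarna13 overlaps Mir3069 and was 86.3% identical to Gm26489 over 240 nt. Values of Scarna3a, Scarna3b, Scarna10, Scarna13 and Scarna17 are uncertain in this sense, Scarna10 also through the exon of Ncapd2 that it overlaps.

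Host genes were compared because intronic scaRNAs are made from the same primary transcript. Over all tested genes 9.43% were enriched and 17.2% depleted. On their own strand 7 members lie inside an annotated gene, while Scarna2 and Scarna17 do not, and all 7 hosts were tested. None was past the limits (0 of 7, at adjusted p-values of 0.0934 to 0.835 in edgeR, with 1 at an unadjusted p below 0.05), 0 were by DESeq2 and 1 was by limma on log2(FPKM + 0.1). That one was Ncapd2, a condensin subunit that holds Scarna10, with 1061 and 877 input counts and 1447 and 1316 RIP counts (log2 fold change 0.97, adjusted p = 0.0934). Ncapd2 passed the limits with scaling by library size (log2 fold change 1.31) and without input replicate 1 (1.13). Cep295, a centriole protein that holds Scarna9, had 114 and 441 input counts and 100 and 84 RIP counts. Its log2 fold change was -1.13 (adjusted p = 0.233), but the sign rests on 1 library. It was -1.78 and past the limits without input replicate 1, and 0.12 without input replicate 2, so that no direction is given for this host. Atg16l1, an autophagy protein that holds Scarna6, stood at 0.68 (adjusted p = 0.308). Rfwd2, a ubiquitin ligase (Scarna3a), stood at 0.52, Dcaf5 (Scarna3b) at 0.42, Haus6 (Scarna8) at -0.21 and AC140477.3 (Scarna13) at -1.28. Without input replicate 2, Rfwd2 passed the limits at 1.16 and AC140477.3 at -1.86.

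The mRNAs of the proteins that make and hold scaRNAs were read from 4 lists with 35 tested genes, of which 7 had an adjusted p below 0.05, against 13.3% of all tested genes. By the limits for calls, 9.43% of all tested genes were enriched and 17.2% depleted. Scaled on small noncoding genes alone, 20 of the list mRNAs were enriched and 1 depleted, so that the directions given hold for the TMM scale. Of 11 tested scaffold and traffic genes of the Cajal body, 1 (Ice1, log2 fold change 1.09, adjusted p = 0.143) was enriched and 1 (Nolc1, -1.42, adjusted p = 0.0490) depleted, with a median log2 fold change of -0.09. Coil, which encodes the scaffold coilin, had 96 and 94 input counts and 89 and 105 RIP counts (log2 fold change 0.49, adjusted p = 0.434). Wrap53, whose product binds scaRNAs, had 78 and 32 input counts and 45 and 48 RIP counts (log2 fold change 0.21, adjusted p = 0.837). Neither mRNA was past the limits, and the Wrap53 groups overlapped.

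In the SMN complex, which loads Sm proteins on snRNAs, 3 of 9 mRNAs were enriched and 1 (Smn1, log2 fold change -1.32, adjusted p = 0.0654) depleted, with a median of 0.13. Gemin5, whose product recognises snRNAs, rose from 86 and 77 counts to 197 and 188 (log2 fold change 1.69, adjusted p = 0.0220). Gemin7 rose from 85 and 46 counts to 161 and 149 (log2 fold change 1.69, adjusted p = 0.0383). The box H/ACA list had 1 enriched mRNA (Shq1, log2 fold change 1.76, adjusted p = 0.0717) and 4 depleted ones of 6, with a median of -1.37. Gar1, a core protein of this class, fell from 1119 and 857 counts to 98 and 56 (log2 fold change -3.23, adjusted p = 0.00238). Nop10, another core protein, fell from 485 and 433 counts to 56 and 62 (log2 fold change -2.50, adjusted p = 0.00402). The box C/D list had 0 enriched and 7 depleted mRNAs of 9, with a median of -1.48. For each of these lists the shares over all tested genes were 9.43% enriched and 17.2% depleted. Snu13, which binds the box C/D fold, had 921 and 567 input counts and 139 and 169 RIP counts (log2 fold change -1.82, adjusted p = 0.0200, 0.19 when scaled on small noncoding genes alone). Nufip1, an assembly factor, had 93 and 87 input counts and 21 and 16 RIP counts (log2 fold change -1.82, adjusted p = 0.0386, 0.19 under the same scaling). Without RIP replicate 2 Nufip1 was no longer past the limits (log2 fold change -1.58, adjusted p = 0.330), and the depleted mRNAs of the 4 lists fell from 13 to 5, against 6 without RIP replicate 1. The mRNAs of the box C/D core proteins Fbl, Nop56 and Nop58 had log2 fold changes of -1.16, -1.06 and -1.93 (adjusted p = 0.0576, 0.101 and 0.0939). A link to the levels of the scaRNAs was not tested.

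**Figure D5:**
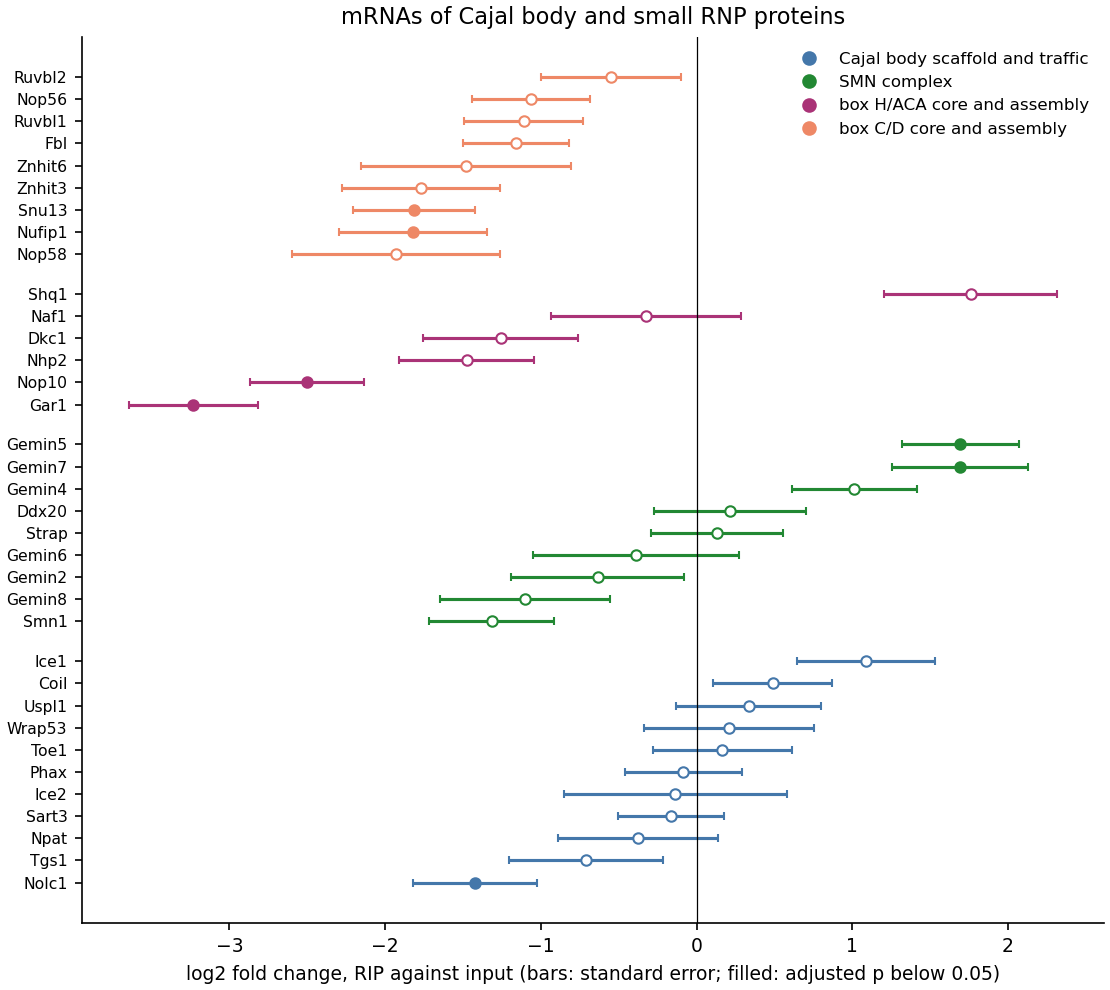
Log2 fold change (RIP against input, bars: SE) of 35 tested mRNAs in 4 lists of Cajal body and small RNP proteins, filled where the adjusted p is below 0.05. Gar1 and Nop10 stand lowest at -3.23 and -2.50, and Gemin5 and Gemin7 are the filled points above 0.

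The tested genes whose pattern over the 4 libraries lay closest to that of Scarna2 were found by the distance between centred log2 CPM values. Gm24339 was nearest at 0.461, followed by Scarna9 at 0.666, Zfp46 at 0.689, Gm9888 at 0.696 and Pcdhga8 at 0.763. Zfp46, a zinc finger gene, had 46 and 52 input counts and 453 and 356 RIP counts. Gm9888 and Pcdhga8, a protocadherin, had at most 25 counts in any library. Among scaRNA genes Gm25395 came at place 47, Gm22009 at 148 and Scarna10 at 3993. With 4 libraries such a distance mostly measures the size of the change.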

How the data were processed

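RNA of P0 wild-type mouse retina was sequenced from 2 inputs and 2 anti-YTHDF2 RIP libraries. The authors deposited counts per gene (whole numbers, not normalized) and FPKM values. The submitters' processing notes name STAR 2.5, HTSeq and GRCm38, without settings for strand or for reads with several matches. Counts divided by deposited FPKM and by GENCODE M21 length were constant within 1.75 to 5.44% over 5 members, so those lengths fit the FPKM scale. No column was left unused (0).

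Counts were analysed with edgeR 4.0.16 in R 4.3.3 (filterByExpr, minimum count 10 and total 15, TMM, glmQLFit and glmQLFTest, Benjamini-Hochberg adjustment over 13632 genes). Enriched transcripts had an unadjusted p below 0.05 with a log2 fold change no lower than 1, depleted ones no higher than -1. With 2 against 2 libraries an exact two-sided permutation test cannot go below p = 0.333, so the p-values rest on the spread shared over genes. Equal replicate numbers mark a shared replicate in the design text. Replicate differences of inputs and of RIP libraries had a Pearson r of -0.0282 and a Spearman rho of -0.0322 over 13632 genes. A replicate block was run as an alternative, beside other scalings and filters, DESeq2 1.42.0, limma 3.58.1 on log2 FPKM (pseudocount 0.1 or 1) with a mean FPKM of at least 0.1 or with no such filter, and each library left out. The fit was tested on simulated data with 197 changed genes among 13264, of which 100% were called, with 1.12% of unchanged genes. Every changed gene was given a log2 change of 2 and every gene the same dispersion. These shares therefore check the code and do not describe how the fit performs on these libraries. Sequence matches came from blastn 2.17.0.

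Members and lists were chosen with earlier results of these data known. Named genes are the Scarna genes, other annotated scaRNA genes, hosts, Coil, Wrap53, the 6 list genes of largest change with an adjusted p below 0.05, and the 5 genes most like Scarna2. Gm24339, Gm28967, Kdr and further list genes were named after their values were seen.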

Additional observations from a re-analysis of the deposited data

How the results depend on the processing

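The scale between libraries limits the directions given for single RNAs. Over all genes the median log2 fold change was -0.05, and it was 0.27 with library size alone and 1.95 with TMM on small noncoding genes alone, and enriched genes made up 35.4%, 57.7% and 96.4% of all calls (45.6% by limma on log2(FPKM + 0.1), 26.8% on log2(FPKM + 1)). Over 14 alternatives the log2 fold change ranged from 3.34 to 5.57 for Scarna2, from 3.41 to 5.68 for Scarna9, from 0.13 to 2.41 for Scarna10, from 0.03 to 2.32 for Scarna17 and from -0.66 to 1.60 for Scarna6. Scarna2 minus the other members was 3.16 to 3.26 with a library left out. With the replicate block Scarna2 stood at 3.56, Scarna9 at 3.72 and Scarna6 at -0.45, and over all genes 1485 were enriched and 2307 depleted. The block changed no call of a member, host, other scaRNA gene or list gene named by the rule.

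Over all genes 1286 were enriched (2357 by library size, 9519 by TMM on small noncoding genes, 386 by limma on log2(FPKM + 1), 670 without RIP replicate 1, 693 without RIP replicate 2, 2097 without input replicate 2) and 2344 depleted (357 by TMM on small noncoding genes, 1055 by limma on log2(FPKM + 1), 1562 to 2610 with a library left out, lowest without RIP replicate 1). Under TMM on small noncoding genes 5 members and 5 hosts passed the limits, as did 20 list genes upward and 1 downward, and 13 Snord, Snora and snRNA genes upward and 23 downward. That scaling also reversed Nufip1 and Snu13 (both 0.19), Gm25820 (0.47), Gm24289 (0.83), Gm22442 (0.34) and Gm23119 (0.91). With no filter on low counts, and by limma in all 3 forms, 1 member (Scarna3a) was depleted. By library size, with no filter and in these limma forms 1 host was called, and 0 to 2 with a library left out. Of the protein lists, 5 mRNAs were enriched (1 by limma on log2(FPKM + 1), 3 without RIP replicate 1, 2 without RIP replicate 2, 4 without either input) and 13 depleted (7 by library size and by limma on log2(FPKM + 0.1) with and without the filter, 4 on log2(FPKM + 1), 6 without RIP replicate 1, 5 without RIP replicate 2, 12 and 13 without an input). Of the Snord, Snora and snRNA genes, 0 were enriched (10, 2 and 8 by limma on log2(FPKM + 0.1), on log2(FPKM + 1) and with no filter) and 66 depleted (39 with at least 10 counts in every library, 114 and 109 by limma on log2(FPKM + 0.1) with and without the filter). The causes were not tested. Of the values of single genes under these alternatives, 329 held their sign and side of the limits, 23 moved beyond the spread of the replicates or turned the sign of a value that was not past the limits, 17 came past the limits, 28 fell short of them and 6 reversed. With 2 replicates a group, low counts leave 4 members without a fold change.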
